A study of Mus musculus with 8 samples.

Results

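The Pak, Rock and Lim kinases on the array were *Pak1*, *Pak2*, *Pak3*, *Pak4*, *Rock1*, *Rock2*, *Limk1* and *Limk2*, 8 of the 19096 genes that could be named from the probes' accessions. Every non-control probe whose accession maps to 1 of these genes was kept, which gave 16 of the 41174 probes on the array. They were measured in whole hearts of embryos at E18.5, shortly before birth, from 4 wild-type (WT) embryos and 4 whole-body germ-line SIRT1 knockout (SIRT1 KO) embryos of the C57BL/6 strain, with 1 heart per one-color Agilent array. SIRT1 is an NAD-dependent protein deacetylase, and the study asked how its loss alters the developing heart. Mice were fed chow and given no treatment, the parents of the embryos were heterozygous, and embryos of both sexes were used. No label says whether the hearts came from separate litters, so the p-values measure only the spread between these hearts.

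These kinases carry signals from small GTPases to the actin cytoskeleton. Pak kinases are switched on by Rac and Cdc42 in their active, GTP-bound form, and Rock kinases by RhoA. Both kinds phosphorylate the Lim kinases, which in turn phosphorylate cofilin, a protein that severs actin filaments and is held inactive by that phosphate. Rock kinases also raise the phosphorylation of myosin light chain, partly by inhibiting the myosin phosphatase, and so increase the contraction of actomyosin. In the heart these pathways take part in the spreading, alignment and contraction of cells. The activity of these kinases is set on the protein, by the binding of GTPases and by phosphorylation, and an array measures only the amount of mRNA.

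The signal of a probe is given as log2 of its processed intensity minus the 75th percentile of its array, so that a value of 0 lies at that percentile. A difference is the mean of the hearts labelled SIRT1 KO minus the mean of the WT hearts on this log2 scale, and levels of different probes are not compared. That percentile corresponded to 939 to 1033 intensity units in WT hearts and 777 to 906 in the others. Each genotype was on a slide of its own, scanned on its own day, so genotype cannot be told apart from slide or scan day. Of the 2 *Sirt1* probes, the brighter was higher in the hearts labelled SIRT1 KO (difference 0.54, standard error 0.11, limma adjusted p = 0.0323, passing in 2 of 8 fits with 1 heart left out). It did not pass with the replicate block (adjusted p = 0.0645), the analysis of variance (0.0865) or median scaling (0.0608), nor as the mean over both probes (0.21, adjusted p = 0.257). The dimmer *Sirt1* probe differed by -0.11 (standard error 0.11). Whether either probe lies in the deleted part of the gene is not analysed here, so the genotypes are those of the labels, and each direction is that of the hearts labelled SIRT1 KO. All 11 cardiomyocyte markers were well above background in every heart, and none passed by its brightest probe, while a dimmer *Myh7* probe was higher (0.36, limma adjusted p = 0.0283).

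Of the 16 kinase probes, 1 passed the threshold (limma adjusted p under 0.05), a *Limk2* probe that was lower in the hearts labelled SIRT1 KO. Among all 25616 probes tested, 4.88% passed, 3.97% higher and 0.91% lower. Higher probes made up 81.4% of the calls, 63.9% with quantile normalization, 35.5% with median scaling and 10.04% with no scaling. The methods' analysis of variance, run on the same values, gave 3 kinase probes with p under 0.05 before and 1 after Benjamini-Hochberg adjustment, beside 20.1% and 2.13% of all probes. With limma, 4 kinase probes had an unadjusted p under 0.05, 3 of them lower, beside 21.5% of all probes and 8.1% lower. The difference was below 0 for 14 of the 16 probes, against 48.3% of all probes tested. This count was 13 with quantile normalization, 11 with the normexp background correction, 14 with median scaling and 15 with no scaling, the last 2 of which moved the median of all probes itself to -0.12 and -0.21. The median difference was -0.12 over the kinase probes and 0.01 over all probes. The probes of 1 gene share its transcripts and are not independent of each other. The genotypes did not overlap for 2 probes, 1 of *Limk2* and 1 of *Pak3*, and both were lower, beside 13.7% of all probes and 5.11% lower. By the brightest probe of each gene, 7 of the 8 kinases lay below 0 and none passed, with a median of -0.06 against -0.01 over all genes. The brightest probe was chosen on all 8 hearts, which for *Limk2* depended on the difference itself, since the *Limk2* probe that passed is the brighter of its 2 in WT hearts alone. With probes chosen on the WT hearts, a choice added after the values were seen, 7 of the 8 kinases were below 0, 1 passed (*Limk2*, lower, beside 0.92% of all genes lower) and the median was -0.09. Among genes by their brightest probe 4.58% passed. At an unadjusted p under 0.05 there was 1 kinase of 8 by this measure with limma, beside 20.4% of all genes, and 1 with the analysis of variance, beside 20.6%. In whole hearts, fewer cells of a type and less RNA per cell cannot be told apart.

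**Figure D1:**
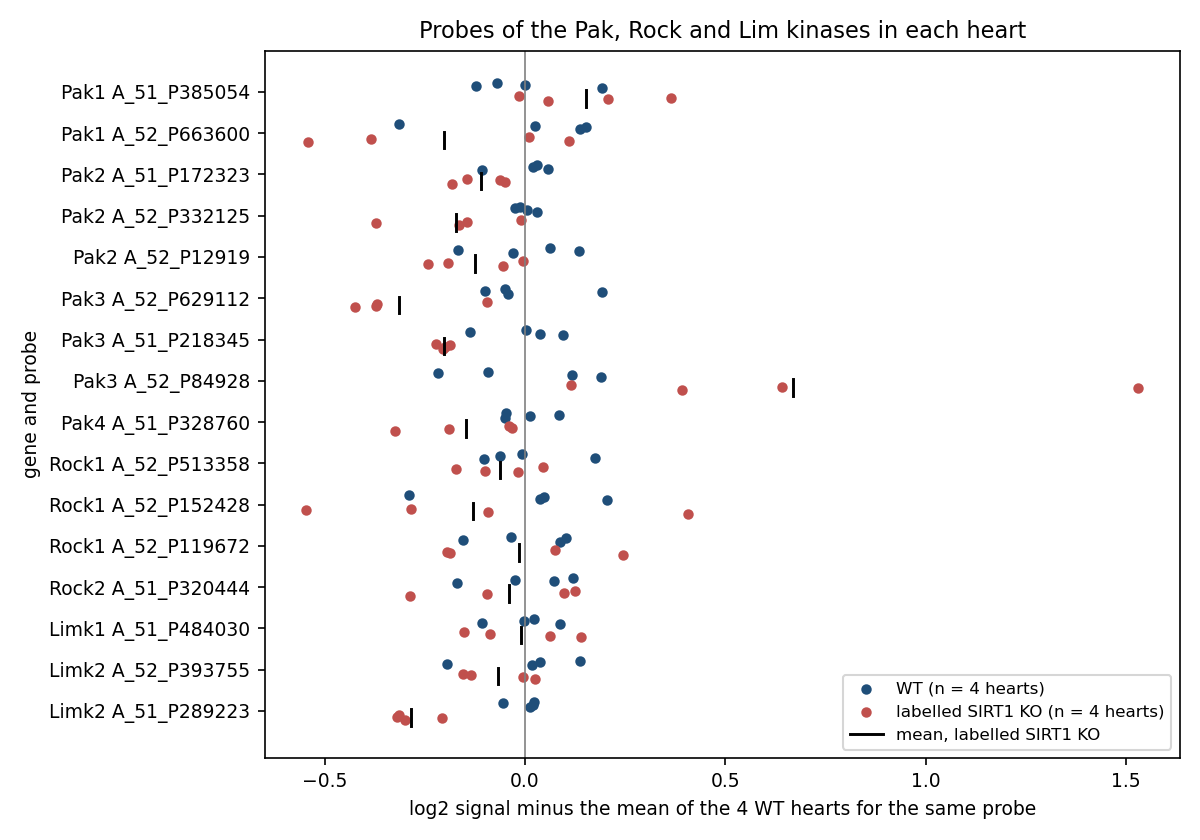
Log2 signal of each of the 16 kinase probes (rows) in each heart, minus the mean of the 4 WT hearts for the same probe, with WT hearts above and hearts labelled SIRT1 KO below in each row and a bar at the latter's mean. The bars of 14 probes lie left of 0, and the lower *Limk2* probe is the 1 that passed the test.

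*Limk2*, 1 of the Lim kinases that phosphorylate cofilin, has 2 probes, of which 1 passed. On A_51_P289223 the log2 signal of the WT hearts was 0.83, 0.84, 0.77 and 0.85, and that of the hearts labelled SIRT1 KO was 0.52, 0.61, 0.50 and 0.51. Every heart labelled SIRT1 KO was below every WT heart. The mean was 0.82 ± 0.04 (SD, n = 4) in WT hearts and 0.54 ± 0.05 (SD, n = 4) in the others, a difference of -0.29 (standard error 0.06, 95% confidence interval -0.43 to -0.14, limma adjusted p = 0.0409), which is a linear ratio of 0.821. The exact two-sided permutation test gave p = 0.0286, the smallest that 4 hearts against 4 allow. With 1 heart left out the difference stayed between -0.31 and -0.27, but the probe passed in 0 of the 8 fits, with adjusted p from 0.0544 to 0.104, and it did not pass with the replicate number as a block (adjusted p = 0.0777) or with no filter on dim probes (adjusted p = 0.0867). It passed in 10 of all 20 alternatives, over which adjusted p ran from 0.0137 to 0.104. These include the series table, which holds the same values and so had to pass, and outlier spots kept, which changed little (adjusted p = 0.0411).

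**Figure D2:**
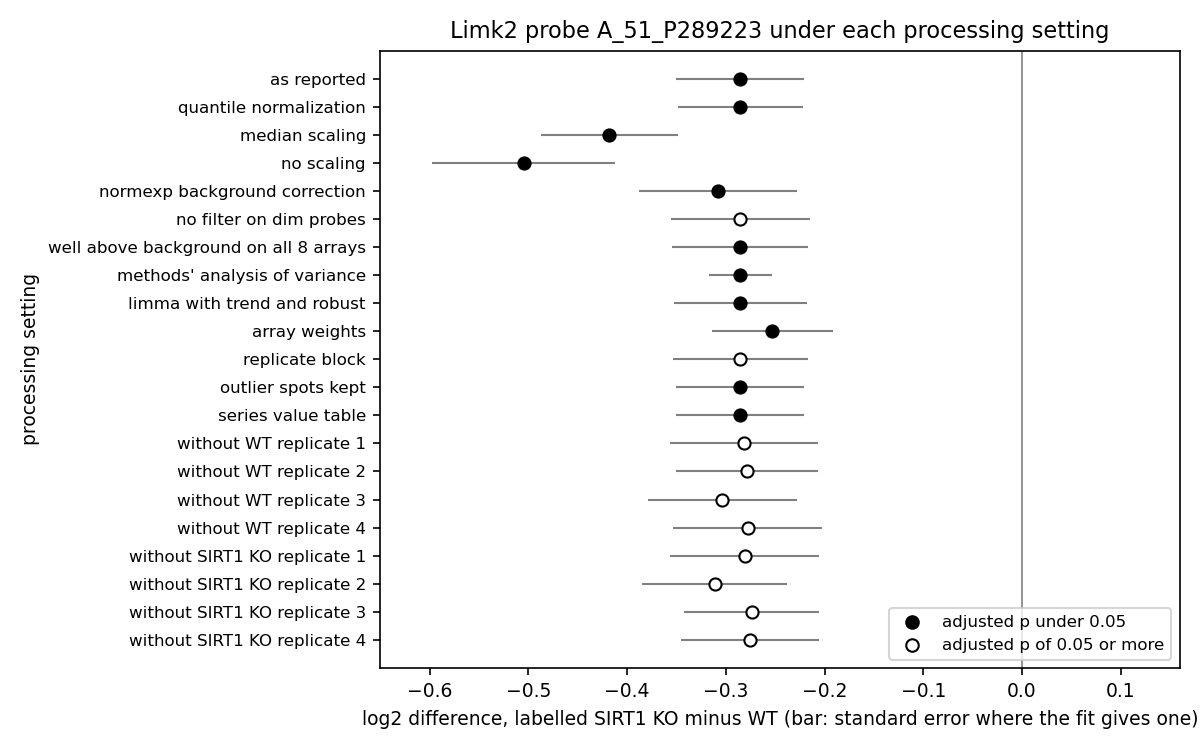
Difference of the *Limk2* probe A_51_P289223 (log2, hearts labelled SIRT1 KO minus WT) under each processing setting, with its standard error. Filled points passed the test and open points did not. All settings lie below 0, between -0.50 and -0.25, and the 8 fits with 1 heart left out have open points.

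The other *Limk2* probe, A_52_P393755, which has the higher mean signal of the pair over all 8 hearts but not over the WT hearts, read 0.76, 0.55, 0.78 and 0.88 in WT hearts and 0.77, 0.74, 0.61 and 0.59 in the hearts labelled SIRT1 KO. The genotypes overlapped across most of their range, since the lowest heart of all was WT replicate 2. The difference was -0.07 (standard error 0.09, 95% confidence interval -0.27 to 0.14, limma adjusted p = 0.703). The log2 ratio of A_51_P289223 to A_52_P393755 within an array, which subtracting 1 value per array leaves as it is, was 0.077 ± 0.15 (SD, n = 4) in WT hearts, against -0.14 ± 0.07 (SD, n = 4) in those labelled SIRT1 KO, a change of -0.22 with no overlap (exact two-sided permutation test p = 0.0286). Adjusted over the 11 pairs of probes of the same kinase, p was 0.157, which did not pass. At 4 hearts against 4, a single pair at the smallest exact p cannot pass this adjustment. It therefore cannot decide on the change between the 2 *Limk2* probes. Where on the *Limk2* transcripts each probe lies is not analysed here.

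RefSeq lists 3 transcription starts of *Limk2*, and the 120 bases before each are shown because 1 probe of this gene passed and the other did not. The sequences are from the GRCm38.p6 assembly, minus strand, 5′ to 3′, at chr11:3409239-3409358 for the first start, chr11:3371405-3371524 for the second, 37834 bases downstream, and chr11:3356142-3356261 for the third, 53097 bases downstream of the first. Capitals mark the GC box, GGGCGG or CCGCCC on the strand shown, a motif bound by Sp1-family factors.
Limk2 start 1: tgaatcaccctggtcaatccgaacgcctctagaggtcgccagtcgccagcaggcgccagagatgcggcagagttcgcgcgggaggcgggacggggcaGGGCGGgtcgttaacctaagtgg
Limk2 start 2: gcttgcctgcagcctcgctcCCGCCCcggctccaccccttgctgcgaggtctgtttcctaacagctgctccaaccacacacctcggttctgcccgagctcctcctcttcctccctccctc
Limk2 start 3: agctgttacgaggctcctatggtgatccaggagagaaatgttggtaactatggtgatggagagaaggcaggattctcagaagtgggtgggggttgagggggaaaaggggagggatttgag
The windows before the first and second starts each hold a GC box and the window before the third holds none. Which of these starts the hearts used was not measured.

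*Limk1*, the paralogue of *Limk2* with the same target, has 1 probe (A_51_P484030). It read 2.49, 2.30, 2.40 and 2.43 in WT hearts and 2.54, 2.46, 2.31 and 2.25 in the hearts labelled SIRT1 KO. The highest and the lowest heart were both labelled SIRT1 KO. The difference was -0.01 (standard error 0.09, 95% confidence interval -0.21 to 0.19, limma adjusted p = 0.962), with its sign turned under quantile normalization (0.02). The ratio of *Limk2* to *Limk1* by their brightest probes changed by -0.06 (exact two-sided permutation test p = 0.314, 0.377 adjusted over 6 pairs of paralogues). With the *Limk2* probe that is brighter in WT hearts it was -0.28 (exact p = 0.0286, adjusted p = 0.137), and with the mean over each gene's probes -0.17 (exact p = 0.0286, adjusted p = 0.171).

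*Pak3*, a Pak kinase known mainly from neurons, was shown in the study among genes of CXCR4 signaling, chosen on these same hearts, so its direction here is no independent evidence. None of its 3 probes passed, and their differences were not of 1 sign. On the brightest, A_52_P629112, WT hearts read -0.81, -0.57, -0.86 and -0.81, and the hearts labelled SIRT1 KO read -1.19, -1.14, -1.13 and -0.86. The genotypes met only at SIRT1 KO replicate 4, which was a little above WT replicate 3. The mean was -0.76 ± 0.13 (SD, n = 4) in WT hearts and -1.08 ± 0.15 (SD, n = 4) in the others. The difference was -0.32 (standard error 0.10, 95% confidence interval -0.54 to -0.09) and did not pass (limma adjusted p = 0.117, exact two-sided permutation test p = 0.0571).

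On A_51_P218345 the WT hearts read -1.33, -1.39, -1.56 and -1.42, and the hearts labelled SIRT1 KO read -1.63, -1.63, -1.61 and -1.65. All hearts labelled SIRT1 KO were below all WT hearts and lay close together, with an SD of 0.014 that was the smallest of any kinase probe in either genotype. The difference was -0.20 (standard error 0.07, 95% confidence interval -0.37 to -0.04) and did not pass (limma adjusted p = 0.151), with the smallest p the exact test allows, 0.0286. With median scaling both of these *Pak3* probes passed (differences -0.45 and -0.34, adjusted p = 0.0376 and 0.0413), a scaling under which the median of all probes was -0.12.

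The dimmest *Pak3* probe, A_52_P84928, had intensities from 32.8 to 97.9 units, well above background in all 8 hearts. It read -4.54, -4.61, -4.95 and -4.82 in WT hearts and -4.34, -3.20, -4.09 and -4.62 in the hearts labelled SIRT1 KO. SIRT1 KO replicate 2 stood highest, and SIRT1 KO replicate 4 was level with the WT hearts. The difference was 0.67 (standard error 0.27, 95% confidence interval 0.06 to 1.28, limma adjusted p = 0.193), opposite in sign to the other probes. Without SIRT1 KO replicate 2 it was 0.38. The ratio of A_52_P84928 to A_51_P218345 was -3.30 ± 0.10 (SD, n = 4) in WT hearts and -2.43 ± 0.61 (SD, n = 4) in the others with no overlap, a change of 0.87 (exact two-sided permutation test p = 0.0286, 0.157 adjusted over the 11 pairs), and that to A_52_P629112 changed by 0.98 (p = 0.0571 by the same exact test). Averaged over the 3 probes *Pak3* differed by 0.05 (limma adjusted p = 0.818), so its sign rests on the choice of probe.

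**Figure D3:**
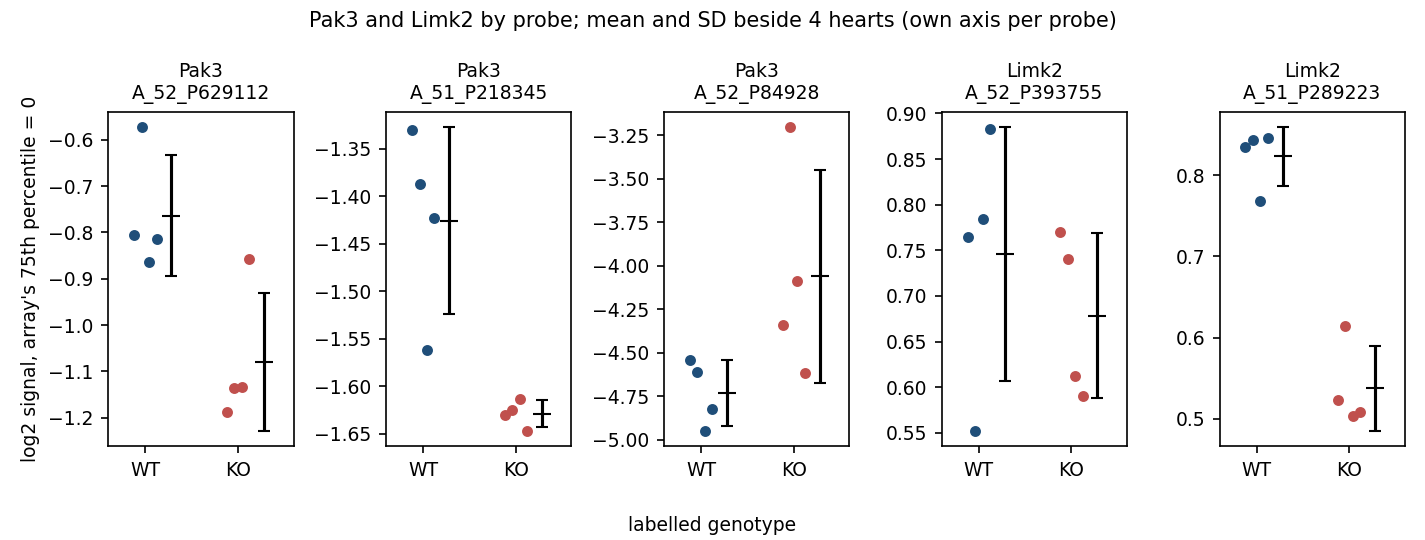
Log2 signal of the 3 *Pak3* and 2 *Limk2* probes in each heart, relative to the array's 75th percentile, with the mean and SD (n = 4 hearts) beside the points and an axis of its own for each probe. WT and the hearts labelled SIRT1 KO are apart for *Pak3* A_51_P218345 and *Limk2* A_51_P289223, and *Pak3* A_52_P84928 differs the other way, with SIRT1 KO replicate 2 at -3.20.

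RefSeq also lists 3 starts for *Pak3*, on the plus strand of chromosome X, and the 120 bases before each are shown because the 3 probes disagree. They lie at chrX:143518471-143518590, at chrX:143665625-143665744, 147154 bases downstream, and at chrX:143693167-143693286, 174696 bases downstream of the first (GRCm38.p6, 5′ to 3′). No base is in capitals, since none of these windows holds a GC box or a TATA box.
Pak3 start 1: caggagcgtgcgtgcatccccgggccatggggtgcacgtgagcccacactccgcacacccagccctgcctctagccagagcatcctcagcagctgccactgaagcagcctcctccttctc
Pak3 start 2: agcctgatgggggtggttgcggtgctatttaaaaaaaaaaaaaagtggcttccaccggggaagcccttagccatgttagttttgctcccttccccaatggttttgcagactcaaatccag
Pak3 start 3: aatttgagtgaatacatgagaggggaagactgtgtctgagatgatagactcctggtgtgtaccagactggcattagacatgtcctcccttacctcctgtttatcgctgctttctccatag
In the whole windows of RefSeq, from 250 bases before to 50 bases after a start and on both strands, a GC box was found in 35.7% of all 32851 promoters. It was found in 7 of the 12 windows of the 6 kinases searched, *Pak1*, *Pak3*, *Pak4*, *Rock2*, *Limk1* and *Limk2*, with none in the 3 windows of *Pak3*. A TATA box (TATAAA on either strand) was found in 13.6% of all promoters and a CArG box, the motif of serum response factor, in 1.63%, and neither was found in any of these 12 windows. A match is a stretch of letters and not a measured site.

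*Pak1*, a widely expressed Pak kinase, was the single kinase whose brightest probe lay above 0. On A_51_P385054 the WT hearts read -2.41, -2.73, -2.61 and -2.68 and the hearts labelled SIRT1 KO read -2.55, -2.40, -2.24 and -2.62. The genotypes overlapped, with WT replicate 1 among the higher hearts. The difference was 0.15 (standard error 0.11, 95% confidence interval -0.09 to 0.40, limma adjusted p = 0.439), and it was -0.07 without scaling between arrays. The other *Pak1* probe, A_52_P663600, was near background, with intensities from 16.7 to 32.1 units and well above background in 3 WT hearts and 2 of the others, and differed by -0.20 (standard error 0.17, limma adjusted p = 0.518).

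*Pak2*, the Pak kinase found in nearly all cells, had 3 probes, all below 0. On the brightest, A_51_P172323, the WT hearts read 3.004, 3.17, 3.13 and 3.14 and the hearts labelled SIRT1 KO read 2.93, 3.06, 3.05 and 2.97. Of the 4 WT hearts, 3 were above all hearts labelled SIRT1 KO. The difference was -0.11 (standard error 0.07, 95% confidence interval -0.27 to 0.05, limma adjusted p = 0.406). The other 2 probes differed by -0.17 (A_52_P332125, adjusted p = 0.283) and -0.12 (A_52_P12919, adjusted p = 0.469, both from limma), and the ratios between *Pak2* probes changed by -0.06 to 0.05. *Pak4*, a Pak kinase of the second group that Cdc42 recruits, read -0.33, -0.27, -0.19 and -0.32 in WT hearts and -0.60, -0.47, -0.31 and -0.32 in the hearts labelled SIRT1 KO (A_51_P328760). The genotypes overlapped through SIRT1 KO replicates 3 and 4. The difference was -0.15 (standard error 0.09, 95% confidence interval -0.34 to 0.05, limma adjusted p = 0.357).

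Neither Rock kinase passed the test. *Rock1* read 3.0002, 3.28, 3.04 and 3.09 in WT hearts and 3.08, 3.004, 2.93 and 3.15 in the hearts labelled SIRT1 KO on its brightest probe, A_52_P513358, with the genotypes mixed. The difference was -0.06 (standard error 0.09, 95% confidence interval -0.26 to 0.13, limma adjusted p = 0.719). Its other probes differed by -0.13 (A_52_P152428, standard error 0.19) and -0.02 (A_52_P119672, standard error 0.12). *Rock2*, with 1 probe (A_51_P320444), read -1.87, -1.62, -1.72 and -1.58 in WT hearts and -1.98, -1.79, -1.60 and -1.57 in the others. The difference was -0.04 (standard error 0.11, 95% confidence interval -0.29 to 0.21, limma adjusted p = 0.865), and it was 0.03 with the normexp background correction. The intervals of *Rock1* and *Rock2* reach down to -0.26 and -0.29, close to the difference of the *Limk2* probe A_51_P289223.

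The balance between related kinases was compared within each array, by the log2 ratio of their brightest probes. None of the 6 pairs passed after adjustment. A single pair could not pass it even at the smallest exact p. The largest change was that of *Pak3* to *Pak1*, from 1.84 ± 0.23 (SD, n = 4) in WT hearts to 1.37 ± 0.28 (SD, n = 4) in those labelled SIRT1 KO, a change of -0.47 (exact two-sided permutation test p = 0.0857, adjusted p = 0.171). *Pak4* to *Pak1* changed by -0.30 (exact p = 0.0571), *Pak2* to *Pak1* by -0.26 (exact p = 0.114) and *Pak3* to *Pak2* by -0.21 (exact p = 0.114), each with an adjusted p of 0.171. The first 3 of these share the same *Pak1* values and are not independent of each other. *Rock2* to *Rock1* changed by 0.02 (exact p = 0.886). With the mean over each gene's probes in place of the brightest, the changes of *Pak3* to *Pak1* and to *Pak2* turned to 0.07 and 0.19.

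**Figure D4:**
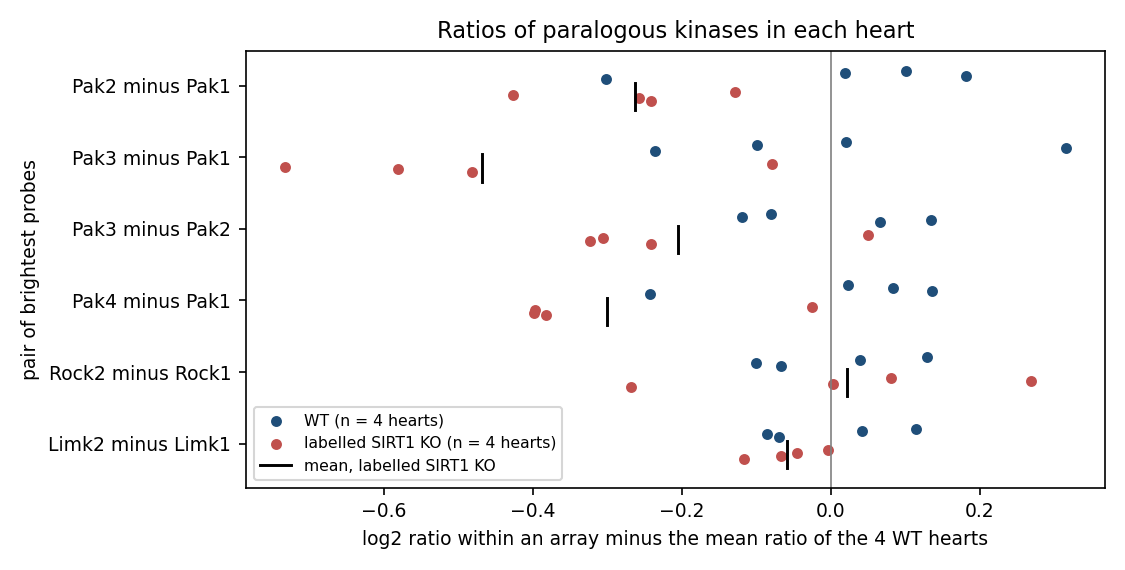
Log2 ratio of the brightest probes of 2 related kinases within each array, minus the mean ratio of the 4 WT hearts, with WT hearts above and hearts labelled SIRT1 KO below in each row and a bar at the latter's mean. The 3 ratios to *Pak1* have their bars between -0.47 and -0.26, and the genotypes overlap in every row.

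Of 13535 named genes compared with *Pak3* by their brightest probe, those with the most similar profile over the 8 hearts were 9330188P03Rik, *Ubxn2a* and *Prkg1*, a cGMP-dependent protein kinase. Likeness was the root mean square difference of log2 signals after each gene was centred on its own mean, which was 0.037, 0.043 and 0.061 for these genes against a median of 0.247 over all genes. Of the kinases, *Pak4* was nearest to *Pak3* (0.145) and *Pak1* the farthest (0.324).

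The genes around the kinases were read in 5 lists with 74 genes, of which 71 were tested. By their brightest probes 2 were called higher and none lower, beside 3.69% of all genes higher and 0.897% lower. The difference was above 0 for 30 and below 0 for 41, beside 51.6% of all genes below 0, with a median of -0.02. The genes called higher were *Pdpk1* and *Ssh3*. With probes chosen on the WT hearts alone 1 gene was called higher, *Ssh3*, beside 3.65% of all genes.

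Among 17 partners and regulators of Pak kinases, 1 probe of *Pdpk1* was called higher. The gene encodes PDK1, the kinase that phosphorylates the activation loop of Akt and of many related kinases and can also phosphorylate Pak1. On A_52_P111390 the WT hearts read 1.79, 2.06, 1.69 and 2.13 and the hearts labelled SIRT1 KO read 3.85, 3.89, 2.87 and 3.22. All hearts labelled SIRT1 KO were above all WT hearts, and the difference was 1.54 (standard error 0.23, limma adjusted p = 0.0073, but 0.0536 with the analysis of variance). Its 2 other probes differed by 0.03 (A_52_P619138, limma adjusted p = 0.846) and 0.10 (A_52_P111397, limma adjusted p = 0.55), so the call rests on 1 of 3 probes. A_52_P111390 stands for the gene only through the hearts labelled SIRT1 KO, since in WT hearts its mean was 1.921 and that of A_52_P619138 was 1.924. Of the GTPases that switch on Pak kinases, *Rac1* differed by -0.03 (limma adjusted p = 0.852). *Cdc42* differed by 0.0036 (limma adjusted p = 0.987, and -0.13 with median scaling), and its other probes by -0.15, 0.07 and -0.11, none past the threshold. *Rac2* and *Rac3*, named after their values were seen, differed by 0.15 (limma adjusted p = 0.546) and 0.34 (limma adjusted p = 0.0692). The genotypes did not overlap for *Rac3*, which passed with array weights.

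None of the 15 regulators of Rock passed, and 2 had an unadjusted p under 0.05 with limma, both lower, beside 8.53% of all genes lower. The smallest p was that of *Rhoa*, the GTPase that switches on Rock, which read 3.47, 3.42, 3.39 and 3.29 in WT hearts and 3.18, 3.16, 3.34 and 3.20 in the hearts labelled SIRT1 KO. SIRT1 KO replicate 3 was the 1 heart of its genotype above the lowest WT heart. The difference was -0.17 (standard error 0.07, limma adjusted p = 0.218). None of 19 genes of contraction and the cell cortex, which include Rock targets and the Diaph formins that RhoA drives beside Rock, passed either. Of these 14 were below 0, beside 51.6% of all genes, and 4 had an unadjusted p under 0.05, 2 in each direction, a share near the 20.4% of all genes. The smallest p was that of *Diaph1*, a formin that nucleates actin filaments, with a difference of 0.34 (standard error 0.09, limma adjusted p = 0.0627). It passed without WT replicate 1 (adjusted p = 0.0318) and with array weights (adjusted p = 0.0367). The difference was 0.20 with median scaling and 0.12 with no scaling, and passed with neither. The methods' analysis of variance also called none in either list. *Diaph3*, another formin, named after its values were seen, differed by -0.46 with no overlap (limma adjusted p = 0.112). It passed with the replicate block (adjusted p = 0.0469), with median scaling (adjusted p = 0.0405) and with no scaling (adjusted p = 0.0216). It did not pass with quantile normalization, normexp, the analysis of variance or array weights, nor with the mean over its probes.

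On the cofilin axis, *Ssh3* rose among the 13 genes tested. It encodes a slingshot phosphatase, the kind of enzyme that removes the phosphate that Lim kinases place on cofilin. It read -4.69, -4.94, -4.64 and -4.71 in WT hearts and -3.92, -3.95, -4.03 and -3.92 in the hearts labelled SIRT1 KO, with no overlap. The difference was 0.79 (standard error 0.08, limma adjusted p = 0.002), and the probe was dim, with intensities from 33.7 to 59.7 units. With no filter on dim probes the median difference of all probes was 0.09, against 0.01 as reported, and its part in this rise was not tested. *Ssh3* passed with each heart left out, and its difference was 0.46 with the normexp background correction (limma adjusted p = 0.0144). The cofilins themselves differed by -0.02 (*Cfl1*, standard error 0.09, limma adjusted p = 0.931) and -0.21 (*Cfl2*, the muscle cofilin, standard error 0.10, limma adjusted p = 0.267). Of the 9 related kinases, 7 were tested and none passed, with 2 at an unadjusted p under 0.05, both higher, beside 11.8% of all genes higher. *Dmpk*, a muscle kinase related to Rock, had the smallest p, with a difference of 0.32 (standard error 0.11, limma adjusted p = 0.131), and *Pak7*, also known as Pak5, was not well above background in any heart.

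**Figure D5:**
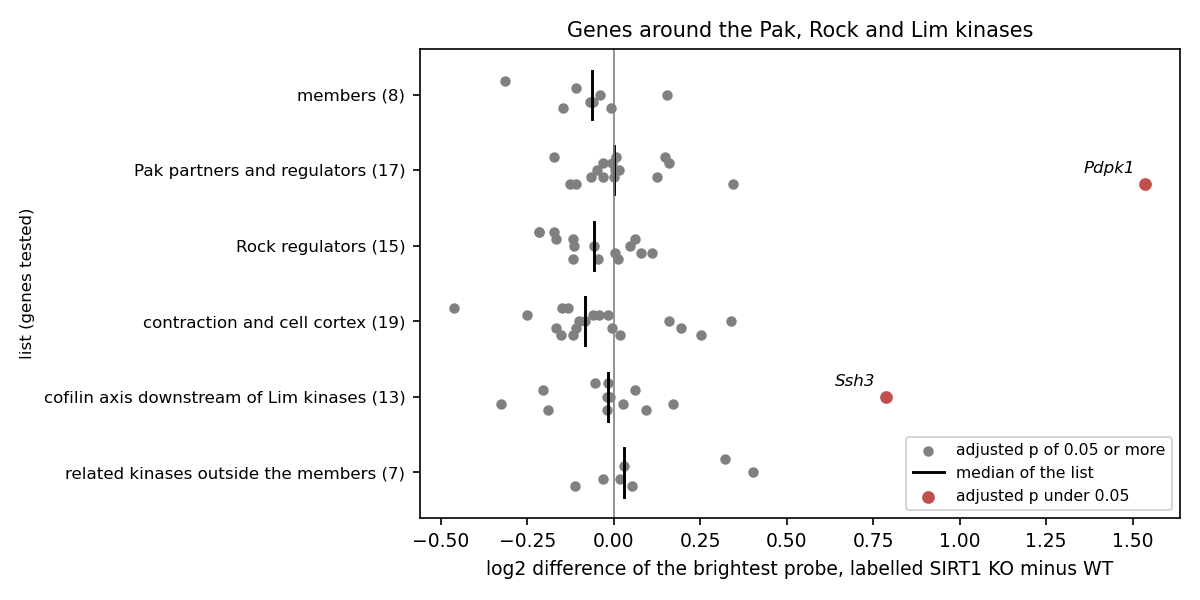
Difference of the brightest probe, in log2 units, for each gene tested in 6 lists (number of genes in brackets), with a bar at the median of each list and red points for genes that passed. *Pdpk1* at 1.54 and *Ssh3* at 0.79 stand to the right, and the medians of the lists lie between -0.08 and 0.03.

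Markers of other cells were read beside these results, and their part in them was not tested. The 5 Schwann cell markers tested were all above 0, and *Sox10* and *Foxd3* were called higher (0.80 and 0.60, passing in 5 and 4 of the 8 fits with 1 heart left out, and 0.36 and 0.32 with normexp). Neither passed with the analysis of variance (adjusted p = 0.0797 and 0.0726), and *Foxd3* did not pass with quantile normalization, median scaling or no scaling (adjusted p = 0.116, 0.0511 and 0.0524). The summed signal of all 5, in multiples of the array's 75th percentile, was 1.70 to 2.11 in WT hearts and 2.12 to 2.80 in the others. Most of it was the signal of the *Fabp7* probe, which did not pass (0.36, limma adjusted p = 0.245). Such a sum weighs each probe by its signal and gives no share of RNA between genes. All 6 liver markers tested were above 0 with none past the threshold, and their sum ranged from 10.7 to 26.6 in WT hearts and from 12.5 to 114 in the others. Of the 4 erythroid markers tested none passed, with 3 below 0 and 1 above. Their sum was 220 to 261 in WT hearts and 174 to 215 in the others. Most of it was the signal of the *Hba-a1* probe (difference -0.23, limma adjusted p = 0.206). Of the 7 neuron markers tested none passed, and *Th*, *Dbh*, *Prph* and *Snap25* were not well above background in any heart. Of 8 endothelial markers 7 were below 0 and none passed. None of the fibroblast, smooth muscle, macrophage and thymus markers tested passed, and no lung marker was bright enough to be tested.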

How the data were processed

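Total RNA of E18.5 mouse hearts, 4 WT and 4 SIRT1 KO, was hybridized as Cy3-labeled cRNA to one-color Agilent arrays. The authors deposited the intensity of every spot from Agilent Feature Extraction (version 12.0.0.7 in the file headers, 12 in the submitters' processing notes), background-subtracted and not scaled between arrays. A series table deposited beside them held the same intensity values. The authors' comparison was an analysis of variance with Benjamini-Hochberg correction.

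Here log2 of the deposited processed signal was taken and the 75th percentile of each array's non-control probes was subtracted. Control and outlier spots were left out and spots of a probe averaged. Accessions were matched without versions to RefSeq names (GRCm38.p6), which named 28223 of 41174 probes (68.5%). Testing was limited to probes well above background on 4 or more arrays, with limma 3.58.1 in R 4.3.3 (lmFit, eBayes, genotype only) and Benjamini-Hochberg adjustment over all 25616 at 0.05. Where a gene has several probes, the one brightest on average across the 8 arrays (in log2) stands for it. For single ratios the permutation test was exact and two-sided. The fit was tested on simulated arrays. Python 3.11.15, numpy 2.4.6, pandas 2.3.3 and matplotlib 3.10.9 did the rest.

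Between 24497 and 26737 probes per array were well above background and no spot was saturated; the number of arrays limits the precision. Same-numbered arrays of the genotypes correlated by 0.056 to 0.207 in their deviations from group means, over 0.1 in 3 of 4 pairs, and were not taken as paired. Alternatives covered scaling, background correction, dim-probe filter, test, array weights, replicate block, outlier spots, source table, probe of the gene and each array left out. Normexp used the median spot signal, with an offset of 50. The kinases, the gene lists and the alternatives were chosen with earlier results of these data known, and the comparison of probes within a gene and the choice of probes on the WT arrays alone were added after values were seen. The genes named by rule are all 8 kinases with every probe, *Sirt1*, *Rac1*, *Cdc42*, *Rhoa*, *Cfl1* and *Cfl2*, the genes of each list past the threshold or else the 1 with the smallest p, at most 3 markers of a cell type past the threshold, and the 3 genes nearest to *Pak3*. *Diaph3*, *Rac2*, *Rac3*, *Myh7*, *Fabp7* and *Hba-a1* were named outside it after their values were seen. *Pak7*, *Th*, *Dbh*, *Prph* and *Snap25* were named as list genes not well above background in any heart. Promoter windows are RefSeq's (GRCm38.p6); *Pak2* has none in the table used, and none is shown for *Rock1*.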

Additional observations from a re-analysis of the deposited data

Results flagged for a closer look

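In 4 of 64 groups of 4 hearts examined, 1 heart lay far from the other 3, with a gap to its nearest neighbour above Dixon's 95% critical share of the group's range. Chance gives about 1 in 20. Among the hearts labelled SIRT1 KO, replicate 4 read -0.86 on *Pak3* A_52_P629112, beside -1.19 to -1.13 in the other 3. The same heart had a *Pak4* to *Pak1* log2 ratio of 2.30, beside 1.93 to 1.95. SIRT1 KO replicate 3 read -2.17 on *Diaph1* A_51_P427768, beside -2.27 to -2.26. Among WT hearts, replicate 3 read 0.77 on *Limk2* A_51_P289223, beside 0.83 to 0.85, and without it the difference on that probe was -0.30 (limma adjusted p = 0.0887).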

How the results depend on the processing

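The number of probes past the threshold was 1250, and it was 1904 with median scaling, 6347 with no scaling, 2566 with normexp, 546 with the analysis of variance, 2277 with array weights and 657 to 1825 with 1 heart left out. The number of kinase probes, 1 as reported, was 3 with median scaling (2 of *Pak3*, 1 of *Limk2*), 6 with no scaling, 0 with no filter on dim probes, 0 with the replicate number as a block and 0 to 0 with 1 heart left out. The number of genes in the 5 lists, 2 as reported, was 4 with median scaling, 20 with no scaling, 4 with normexp, 1 with the analysis of variance, 5 with array weights, 1 with probes chosen on the WT hearts alone and 2 to 3 with 1 heart left out. Without scaling, *Pak2* (-0.33), *Pak3* (-0.53), *Pak4* (-0.37), *Rhoa* (-0.39) and *Cfl2* (-0.43) passed on their brightest probes, beside a median of all probes of -0.21.

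Signs turned as follows, with no turned value past the threshold. With quantile normalization *Limk1* was 0.020, *Cfl1* 0.0035 and the *Rock2* to *Rock1* ratio -0.047. With median scaling *Cdc42* was -0.13. With no scaling *Cdc42* was -0.22 and *Pak1* -0.066. With normexp *Rock2* was 0.028, *Cdc42* -0.048 and *Cfl1* 0.0037. With array weights *Limk1* was 0.030 and *Cdc42* -0.0034. With the mean over a gene's probes *Pak1* was -0.024, *Pak3* 0.050, *Cdc42* -0.046, the *Pak3* to *Pak1* ratio 0.074 and the *Pak3* to *Pak2* ratio 0.19. With 1 heart left out, *Limk1* ranged from -0.060 to 0.038, *Rock2* from -0.097 to 0.041, *Rac1* from -0.064 to 0.013, *Cdc42* from -0.057 to 0.047, *Cfl1* from -0.082 to 0.047 and the *Rock2* to *Rock1* ratio from -0.062 to 0.12. The cause of these changes was not tested.

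With the replicate block 1185 probes and 3 list genes passed (*Pdpk1*, *Ssh3* and *Diaph3*), and *Limk2* A_51_P289223 did not (adjusted p = 0.0777). All 8 arrays correlated best with the array of their own number, a hint from the data and not from the labels. *Pak1* A_52_P663600 was well above background in 3 WT hearts and 2 of the others, and the number of arrays limits the precision.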
